A study of Arabidopsis thaliana with 4 samples.

Results

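Transcript counts of 10 xyloglucan endotransglucosylase/hydrolase (XTH) genes were compared across leaves of Arabidopsis thaliana that received Dox or water, and across leaves of those plants that received neither. The 10 genes were taken by locus identifier: XTH4 (AT2G06850), XTH6 (AT5G65730), XTH7 (AT4G37800), XTH8 (AT1G11545), XTH9 (AT4G03210), XTH15 (AT4G14130), XTH17 (AT1G65310), XTH18 (AT4G30280), XTH19 (AT4G30290) and XTH33 (AT1G10550). They are 10 of the 32982 genes counted and 10 of the 33 XTH genes of this species. All 10 had a row of counts, and all 10 passed the filter on low counts that left 19403 genes for testing.

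The samples fall into 4 groups of 3 libraries. Dox local leaves were given Dox at a dose labelled 25 um/g. Control local leaves were given water. Dox systemic and control systemic leaves are leaves of the same 2 sets of plants with no treatment of their own in the labels. The labels name no genotype, ecotype, leaf number or age, do not spell out Dox, and give no time between treatment and harvest. All plants were raised on agar medium with sucrose at 22 °C under days of 16 h light and 8 h dark. The title of the series calls the treatment mito-stress and the response in other leaves systemic acquired adaptation. Whether the 3 libraries of a group are separate plants is not stated, and the p-values below cover the variation among libraries alone, which could be technical. Total counts were even, at 18981328 to 21380652 per library. Levels are given as CPM, counts scaled to the size of the library (with library sizes adjusted by the TMM method). The TMM factors were less even than the totals. They ran from 0.787 in Dox local library 1 and 0.866 in control local library 3 to 1.14 in Dox systemic library 1. In whole leaves, fewer cells of a type and less RNA per cell cannot be told apart.

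XTH enzymes act in the cell wall on xyloglucan, the main hemicellulose that coats and tethers cellulose in the primary wall of this plant. Most cut a xyloglucan chain and join the cut end to another chain, which lets the wall be remodelled while cells expand, and some members instead hydrolyse the chain. The catalytic site holds a conserved run of acidic residues, of which a glutamate starts the reaction. In leaves the family is known for members that answer touch, hormones, shade and darkness.

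The coding sequence of that site is shown because it is the stretch by which an XTH gene is recognised. Each line gives 30 bases of the coding strand from RefSeq, assembly TAIR10.1, matched by locus, 5′ to 3′, with the codons of the 3 acidic residues (glutamate, aspartate, glutamate) in capitals. XTH4 is the most abundant of the 10 genes per unit length, XTH9 carried the lowest p of a Dox comparison, and XTH17, XTH18, XTH19 and XTH33 varied most between libraries.
XTH4: catgacGAGataGACtttGAGttccttgga
XTH9: cacaacGAAttcGATtttGAGttcttaggg
XTH17: tgggatGAGatcGATttcGAGttcttggga
XTH18: tgggatGAGattGATttcGAGttcttagga
XTH19: tgggatGAGattGATttcGAGtttttgggg
XTH33: cacgacGAGataGACataGAAttgttgggt
Relative to XTH4, 9 of the 30 bases differed in XTH9, 9 in XTH17, 9 in XTH18, 11 in XTH19 and 8 in XTH33. XTH17, XTH18 and XTH19 share the bases before the first capital, which differ from those of the other genes shown.

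Those XTH17, XTH18 and XTH19 genes are close copies, and the copies matter for the counts. The coding sequences of XTH17 and XTH18 are 92.2% identical, those of XTH18 and XTH19 89.2% and those of XTH17 and XTH19 88.6%, whereas every other pair among the 10 lies between 59.6% and 74.0%. The stretch below, 68 coding bases from the same source, is the longest that XTH18 and XTH19 share, and the capital marks the base at which XTH17 differs.
XTH17: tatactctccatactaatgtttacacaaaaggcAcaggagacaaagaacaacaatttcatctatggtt
XTH18: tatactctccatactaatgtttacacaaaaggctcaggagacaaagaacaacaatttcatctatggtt
XTH19: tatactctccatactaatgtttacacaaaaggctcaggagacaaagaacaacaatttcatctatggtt
Cut into all possible stretches of 50 bases, 1.63% of the XTH19 transcript, 1.57% of the XTH18 transcript and 0.167% of the XTH17 transcript also occur in another XTH gene, and none of the other members' stretches do. How the authors' counting treated reads that fit several genes is not given in the sources used here. XTH18 stood far above XTH19 in level, so the XTH19 counts are the more uncertain of the pair. XTH18, XTH19 and XTH24 are neighbours on chromosome 4 in that assembly, with no annotated protein-coding gene between them.

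The 10 genes covered a wide range of levels. Divided by transcript length and averaged over the 12 libraries, the level was 467 CPM per kb for XTH4, 360 for XTH18, 111 for XTH7, 49.8 for XTH9, 43.4 for XTH6, 37.2 for XTH8, 34.5 for XTH17, 13.2 for XTH19, 11.7 for XTH33 and 3.99 for XTH15. XTH4, also known as EXGT-A1, is an expansion-related transglucosylase, and XTH7 and XTH6 are further leaf-expressed members. No step of this order was clear of the spread: the library ranges of every pair of neighbours overlapped. XTH4 was above XTH18 per kb in 9 of 12 libraries, XTH17 above XTH19 in 11 of 12, and XTH6 above XTH8 in 6 of 12. In single libraries the members' counts ran from 17, for XTH15, to 24594, for XTH18, so counting error weighs most on XTH15. XTH33, with as few as 29 counts in a library, and XTH19, with as few as 59, are touched by it too.

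**Figure D1:**
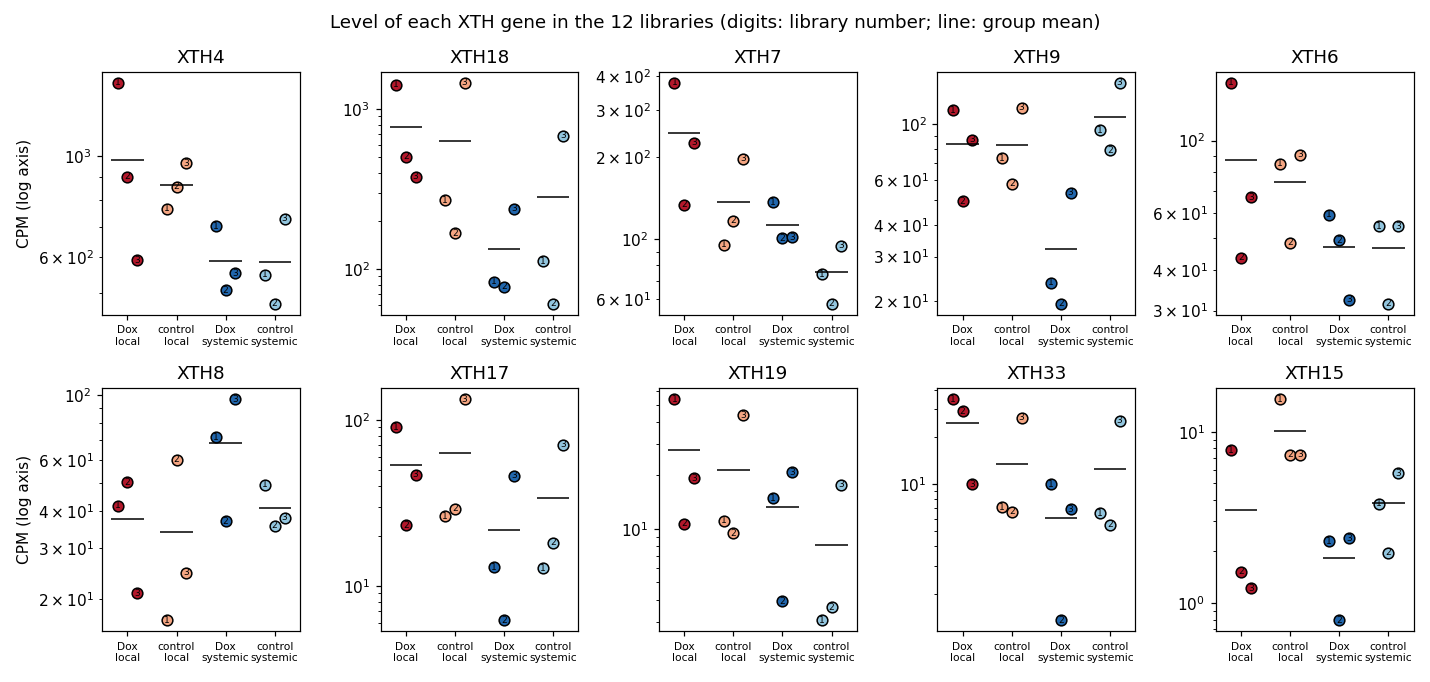
Level of each of the 10 XTH genes (CPM, log axis) in the 12 libraries, with 1 point per library, its number inside the point, and a line at the group mean. Dox systemic libraries lie below control systemic libraries for XTH9, and Dox local library 1, control local library 3, Dox systemic library 3 and control systemic library 3 are the highest of their groups for XTH17, XTH18 and XTH19.

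Most of the members varied more between libraries of a group than the typical gene. The SD of log2(CPM + 1) within groups had a median of 0.70 over the 10 members, against 0.286 over all genes tested. XTH18 had 1.39, a value above that of 99.6% of the genes tested, and XTH4 had the lowest of the members at 0.388. Differences between groups held a median of 40.8% of the members' variance and 34.9% over all genes tested.

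Single libraries, 1 in each group, carried much of that spread. XTH18, known in roots from the elongating and differentiating region, stood at 1423, 504 and 379 CPM in Dox local leaves, against 270, 168 and 1459 CPM in control local leaves. In the systemic leaves it stood at 83.2, 77.6 and 238 CPM with Dox, against 112, 60.8 and 680 CPM in controls. Dox local library 1, control local library 3, Dox systemic library 3 and control systemic library 3 were thus each far above the other libraries of their group, 2 of them with Dox and 2 without. XTH18 exceeded XTH4 per kb in 3 of these 4, Dox systemic library 3 excepted, and in no other library.

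The close copies followed the same libraries. XTH17, known from the same region of the root, had 90.3, 23.2 and 46.5 CPM in Dox local leaves, against 26.2, 29.0 and 133 CPM in control local leaves. Its systemic levels were 12.9, 6.22 and 45.9 CPM with Dox, against 12.8, 18.2 and 70.6 CPM in controls. XTH19, known in roots from the dividing and elongating regions, had 53.6, 10.7 and 19.3 CPM in Dox local leaves, against 11.1, 9.43 and 43.6 CPM in control local leaves. Both genes were highest of their groups in the 4 libraries named for XTH18, and their Dox and control libraries overlapped at both leaf positions. In systemic leaves XTH19 had 14.9, 3.93 and 20.9 CPM with Dox, against 3.07, 3.61 and 17.7 CPM in controls.

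XTH33, which encodes a member held at the membrane, had 34.8, 29.1 and 9.97 CPM in Dox local leaves, against 7.12, 6.65 and 26.5 CPM in control local leaves. In systemic leaves the gene had 10.001, 1.356 and 6.912 CPM with Dox, against 6.509, 5.484 and 25.437 CPM in controls. Its 2 highest libraries of Dox local leaves lay above every control local library, the third lay among them, and the systemic groups overlapped.

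**Figure D2:**
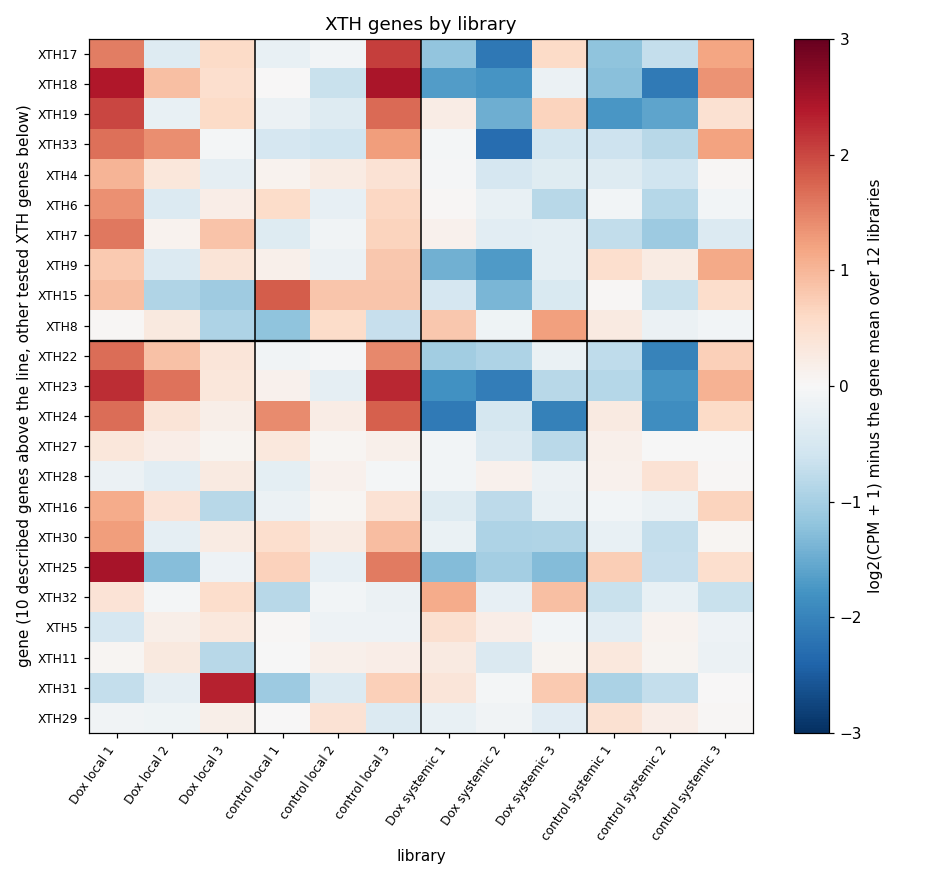
log2(CPM + 1) of each XTH gene minus its mean over the 12 libraries, by library, with the 10 described genes above the line and the 13 other XTH genes tested below it. Dox local library 1 and control local library 3 are above the mean for XTH17, XTH18, XTH19 and XTH33, and the XTH8 row does not share that pattern.

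In local leaves the question was how Dox changed these genes where it was applied. No member passed. By edgeR's quasi-likelihood test with Benjamini-Hochberg adjustment, 0 of 10 members passed an adjusted p of 0.05, against a background of 0% of all 19403 genes, and adjusted p ran from 0.902 to 0.997. DESeq2 also called 0 of 10, with 0.0722% of all genes called. At an unadjusted p under 0.05 there was 1 member, XTH7, where 4.72% of all genes stood under that value. The log2 fold change, Dox over control, was positive in 8 of 10 members, where 52.2% of all genes were positive, and its median was 0.20, against 0.017 over all genes tested. None of the 10 had Dox libraries clear of the control libraries, a pattern that 4.14% of all genes had with Dox higher and 3.4% with Dox lower.

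XTH7 had 377, 134 and 227 CPM in Dox local leaves, against 95.3, 117 and 198 CPM in control local leaves. The means were 246 ± 122 CPM with Dox and 137 ± 54.2 CPM in controls (SD, n = 3 each), a log2 fold change of 0.85 (SE 0.37, edgeR adjusted p = 0.902). A single control library, library 3, stood above the lowest Dox library. The value was 0.40 without Dox local library 1 and 1.21 without control local library 3.

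XTH15, a gene known as a marker of shade responses and the lowest of the 10, went the other way in its fitted value. It had 7.79, 1.52 and 1.22 CPM in Dox local leaves, against 15.5, 7.36 and 7.36 CPM in control local leaves, a log2 fold change of −1.53 (SE 0.70, edgeR adjusted p = 0.902). Dox local library 1 lay just above the 2 lower control libraries and the other Dox libraries lay well below them. Without Dox local library 1 the log2 fold change was −2.88, and it did not pass.

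The other 8 members had local log2 fold changes between −0.23 for XTH17 and 0.88 for XTH33. The wider errors belong to the genes that follow the high libraries. XTH18 had a log2 fold change of 0.28 (SE 0.99), and the value was 1.81 without control local library 3 and −0.52 without Dox local library 1. XTH33, at 0.88 (SE 0.81), stood at 1.84 without control local library 3. The direction of XTH17, −0.23 (SE 0.89), was positive without control local library 3, at 0.95. XTH19, at 0.39 (SE 0.87), was −0.51 without Dox local library 1.

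The most abundant member had a narrower range. XTH4 had 1447, 901 and 592 CPM in Dox local leaves, against 767, 857 and 965 CPM in control local leaves, with a log2 fold change of 0.18 (SE 0.31) that was −0.21 without Dox local library 1. XTH6 had 151, 43.5 and 66.9 CPM in Dox local leaves, against 85.0, 48.5 and 90.4 CPM in control local leaves. For both genes the highest Dox library lay above all control libraries, the lowest lay below them, and the remaining Dox library lay within their range. XTH8 had 41.7, 50.3 and 21.0 CPM in Dox local leaves, against 17.0, 60.0 and 24.7 CPM in control local leaves, and it overlapped throughout. XTH9 had 113, 49.6 and 86.6 CPM in Dox local leaves, against 73.1, 58.2 and 116 CPM in control local leaves. Its means, 83.2 ± 32.0 CPM with Dox and 82.3 ± 29.9 CPM in controls (SD, n = 3 each), differed by far less than their spread, with a log2 fold change of 0.01 (SE 0.43).

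**Figure D3:**
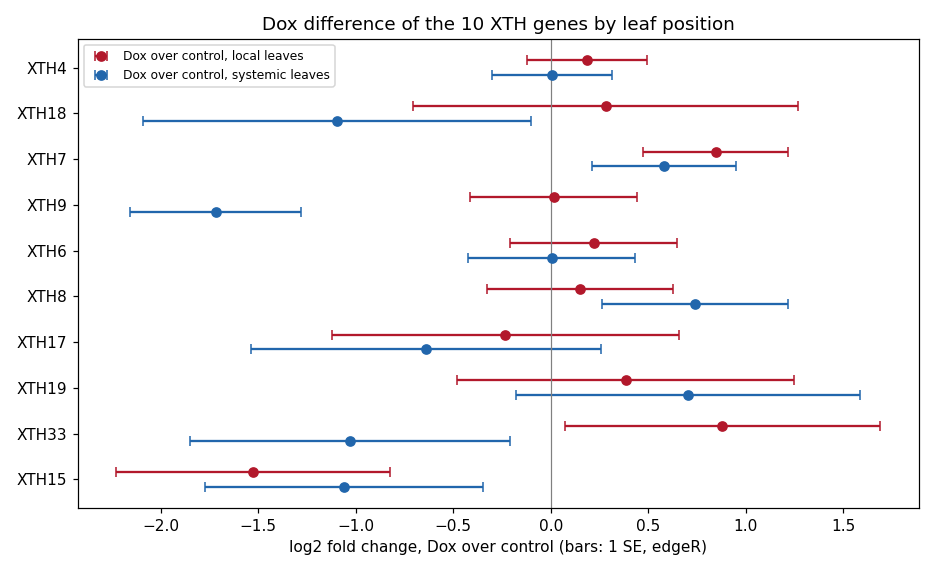
log2 fold change, Dox over control, of each of the 10 XTH genes in local leaves (red) and in systemic leaves (blue), with bars of 1 standard error derived from the edgeR test statistic. XTH9 in systemic leaves is the value farthest from 0, at −1.72, and in local leaves XTH9 lies at 0.01.

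In systemic leaves the question was whether leaves that received no Dox differed when other leaves of the plant had received it. XTH9, which is known from the shoot apex and flower buds, was 3.29-fold lower with Dox. It had 23.6, 19.5 and 53.5 CPM in Dox systemic leaves, against 94.5, 78.9 and 145 CPM in control systemic leaves. The highest Dox library lay below the lowest control library. The means were 32.2 ± 18.6 CPM with Dox and 106 ± 34.6 CPM in controls (SD, n = 3 each), and the log2 fold change was −1.72 (SE 0.44). It did not pass edgeR's adjusted p (0.451, unadjusted p = 0.00230 by the quasi-likelihood fit across all genes), and it passed that of DESeq2 at 0.0310.

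That call by DESeq2 depended on single libraries. Leaving out 1 library at a time, XTH9 passed without control systemic library 2, at an adjusted p of 0.0455 and a log2 fold change of −1.90, and without Dox systemic library 3, at 0.000735 and −2.31. The call was lost without control systemic library 1 (adjusted p = 0.132), control systemic library 3 (0.195), Dox systemic library 1 (0.361) or Dox systemic library 2 (0.102). Across these 6 fits and the matching edgeR fits the log2 fold change lay between −2.31 and −1.41.

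Counts over the members were as follows. edgeR called 0 of 10, against 0% of all genes, and 1 of 10 stood at an unadjusted p under 0.05, against 8.61% of all genes. DESeq2 called 1 of 10, which was XTH9, against 0.715% of all genes. The log2 fold change was positive in 5 of 10 members, against 49.9% of all genes, with a median of −0.32 over the members and −0.00080 over all genes tested. Dox and control libraries were clear of each other in 2 members, XTH7 higher, as in 7.96% of all genes, and XTH9 lower, as in 8.41%. At least 2-fold lower were 4 members (XTH9, XTH15, XTH18 and XTH33), against 4.38% of all genes, and none of the 4 passed edgeR's test.

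XTH7 in systemic leaves had 137, 101 and 102 CPM with Dox, against 74.3, 57.8 and 94.5 CPM in controls. Every Dox library lay above every control library, with means of 113 ± 20.5 and 75.5 ± 18.4 CPM (SD, n = 3 each) and a log2 fold change of 0.58 (SE 0.37, edgeR adjusted p = 0.678). XTH8 had 71.7, 37.0 and 96.6 CPM in Dox systemic leaves, against 49.3, 35.7 and 38.0 CPM in control systemic leaves. One of its Dox libraries lay within the control range, and the log2 fold change was 0.74 (SE 0.48, edgeR adjusted p = 0.683).

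XTH15 stood at 2.30, 0.795 and 2.39 CPM in Dox systemic leaves, against 3.80, 1.96 and 5.74 CPM in control systemic leaves, with a log2 fold change of −1.06 (SE 0.71). The groups overlapped through 1 control library. XTH18 was at −1.10 (SE 1.00) and XTH33 at −1.03 (SE 0.82), and both values turned on control systemic library 3. Without that library XTH18 was at 0.62, XTH33 at 0.02 and XTH17, at −0.64 (SE 0.90) with all libraries, at 0.49. Without Dox systemic library 3, the high library of the other group, XTH18 was at −1.82 and XTH17 at −1.82. XTH19 had a log2 fold change of 0.71 (SE 0.88), with 1.98 when control systemic library 3 was left out and 0.21 when the Dox library of that number was.

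XTH4 and XTH6 had systemic values close to 0. XTH4 had 702, 508 and 553 CPM in Dox systemic leaves, against 550, 474 and 729 CPM in control systemic leaves. The log2 fold change was 0.0079 (SE 0.31). XTH6 had 59.1, 49.4 and 32.3 CPM in Dox systemic leaves, against 54.4, 31.5 and 54.5 CPM in control systemic leaves, with a log2 fold change of 0.0048 (SE 0.43). The libraries of both genes overlapped widely.

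Markers of other tissues were read beside these values. The summed level of 4 mesophyll marker genes lay between 13594 and 19407 CPM in Dox systemic leaves and between 20971 and 22702 CPM in control systemic leaves, with no overlap. Gene by gene, 1 of the 4 was clear and lower with Dox, against 8.41% of all genes. It was RBCS1A, at 7689 to 10773 CPM with Dox, against 11167 to 11594 CPM in controls. CA1, RCA and LHCA1 overlapped, and edgeR and DESeq2 called 0 of the 4. The 5 shoot apex and cell division markers summed to between 10.7 and 22.6 CPM in Dox systemic leaves and between 8.02 and 21.3 CPM in control systemic leaves. Markers of vascular tissue summed to 140 to 190 CPM with Dox, against 99.0 to 180 CPM in controls, and those of guard cells to 74.5 to 106 CPM with Dox, against 65.7 to 101 CPM in controls. Of the 4 guard cell genes, 3 had a positive log2 fold change, against 49.9% of all genes. HT1 alone was clear, with Dox higher, against 7.96% of all genes, and edgeR and DESeq2 called 0 of the 4. The part of these marker levels in the XTH9 result was not tested. Root tissue was at or near 0: of 9 root markers, 8 summed to at most 0.888 CPM in any library, and EXPA7 and IRT1 had no read. The ninth, the beta-glucosidase gene PYK10, is known from leaves as well and was the 1 root marker tested. PYK10 had 14.4, 25.7 and 39.9 CPM in Dox local leaves, against 239, 184 and 179 CPM in control local leaves, a log2 fold change of −2.91 (SE 0.95, edgeR adjusted p = 0.902) with no overlap. In systemic leaves it had 6.80, 23.6 and 7.68 CPM with Dox, against 77.4, 1.65 and 55.7 CPM in controls, at −1.82 (SE 0.92) with overlap. The part of PYK10-expressing tissue in the XTH values was not tested. The 4 flower markers summed to at most 1.82 CPM in any library.

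The difference between both Dox effects, local minus systemic, was tested as an interaction. For XTH9 it was 1.73 on the log2 scale (SE 0.61, unadjusted p = 0.0155 by edgeR's quasi-likelihood fit, adjusted p = 0.832). It was 1.91 (SE 1.15) for XTH33, between 0.86 without control systemic library 3 and 2.87 without control local library 3, and 1.38 (SE 1.40) for XTH18. None of the 10 passed by edgeR or DESeq2, against 0% and 0.00516% of all genes called. The value was positive in 7 of 10, against 51.1% of all genes, and 1 of 10 stood at an unadjusted p under 0.05 in edgeR, against 5.19% of all genes. A Dox effect on XTH9 that is particular to systemic leaves was therefore not shown.

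Leaf position was compared within each set of plants. Among control plants, systemic leaves had lower fitted levels than local leaves in 8 of 10 members, XTH8 and XTH9 excepted, where 49.3% of all genes had a positive value, with a median log2 fold change, systemic over local, of −0.77 against −0.01 over all genes tested. By edgeR and by DESeq2 0 of 10 passed, where 0% and 0.294% of all genes did, and 1 of 10 stood at an unadjusted p under 0.05, against 6.88% of all genes. Systemic and local libraries were clear of each other in 3 members, all lower in systemic leaves, a direction that 4.96% of all genes had, while 8.03% were clear and higher. These were XTH4 at −0.56 (SE 0.31), XTH7 at −0.86 (SE 0.37) and XTH15 at −1.40 (SE 0.70). Without control local library 3 the members' median was −0.12, and with its partner, control systemic library 3, left out as well it was −0.68.

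The control libraries with the same number deviated together, so this comparison was also made within numbers. Systemic leaves were below local leaves in 3 of 3 pairs in 8 of 10 members, where 20.1% of all genes had that pattern, and XTH9 was above in every pair. XTH18 had 112, 60.8 and 680 CPM in control systemic leaves, against 270, 168 and 1459 CPM in control local leaves of the same numbers. XTH19 had 3.07, 3.61 and 17.7 CPM in control systemic leaves, against 11.1, 9.43 and 43.6 CPM in control local leaves. In an edgeR fit to the 6 control libraries with the number as a block, a fit added after the data were seen, XTH18 fell by 1.28 (SE 0.17, adjusted p = 0.0423) and XTH19 by 1.49 (SE 0.17, adjusted p = 0.0423) on the log2 scale, and no other member passed, where 0.378% of 18776 genes did. XTH17 stood at −0.87 (SE 0.14, adjusted p = 0.0644). The pairing was itself chosen from the likeness of these same libraries. The p-values of this fit can therefore be too small, and its calls are given as description. XTH18 and XTH19 share stretches, and how reads from them were counted is not known, so both calls may not be fully separate. Both calls were lost without the libraries numbered 1, at adjusted p of 0.141 for XTH18 and 0.132 for XTH19, and without those numbered 3, at 0.257 for each. They held without those numbered 2, where XTH17 and XTH8 passed as well. A block in the fit to all 12 libraries called neither gene, at adjusted p of 0.632 for XTH18 and 0.546 for XTH19.

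Among Dox plants, 9 of 10 members were lower in systemic leaves in their fitted value, where 52.1% of all genes had a positive value, and the median was −1.10 against 0.02 over all genes tested. XTH18 averaged 133 ± 91.0 CPM in systemic leaves and 769 ± 570 CPM in local leaves (SD, n = 3 each), a log2 fold change of −2.53 (SE 1.04), with its systemic libraries all below its local libraries, as in 11.8% of all genes, while 11.9% had them all above. XTH33 stood at −2.01 (SE 0.84), XTH9 at −1.37 (SE 0.44), XTH7 at −1.12 (SE 0.37), XTH4 at −0.74 (SE 0.31) and XTH8, the exception, at 0.86 (SE 0.48). Without Dox local library 1, XTH7 was at −0.68 and XTH4 at −0.35, and without Dox systemic library 3, XTH8 was at 0.53. By edgeR 0 of 10 passed, against 0.00515% of all genes, and by DESeq2 0 of 10, against 3.06%. At an unadjusted p under 0.05 there were 5 members (XTH4, XTH7, XTH9, XTH18 and XTH33), against 17.9% of all genes, and the lowest edgeR adjusted p was 0.220. The comparison shares its Dox libraries with the treatment comparisons, and without Dox local library 1 the members' median was −0.51. The 4 mesophyll markers summed to between 13594 and 19407 CPM in Dox systemic leaves and between 20971 and 25084 CPM in Dox local leaves, with no overlap. Gene by gene, 2 of the 4, CA1 and RCA, were clear and lower in systemic leaves, against 11.8% of all genes. RBCS1A and LHCA1 overlapped. In control plants the sums were between 20971 and 22702 CPM in systemic leaves and between 13941 and 21085 CPM in local leaves, with overlap. There 1 of the 4, RBCS1A, was clear and higher in systemic leaves, against 8.03% of all genes. The part of these sums in the leaf position values was not tested.

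The rest of the XTH family was set beside the 10 members. Of the 23 other genes, 13 were tested, 2 (XTH10 and XTH14) had too few reads to be tested, and 8 had no read in any library. XTH22, known as TCH4, the touch gene of the family, was the most abundant and held 23.8% to 45.7% of the family's CPM in a library. The whole family summed to 7560 ± 3748 CPM in Dox local leaves and 6199 ± 3619 CPM in control local leaves, and to 2505 ± 435 CPM in Dox systemic leaves and 3447 ± 2203 CPM in control systemic leaves (SD, n = 3 each). The 10 members summed to 2312 ± 1245 CPM in Dox local leaves, 1930 ± 981 CPM in control local leaves, 1024 ± 191 CPM in Dox systemic leaves and 1196 ± 583 CPM in control systemic leaves. The Dox and control ranges overlapped in each of these sums. By leaf position, family sums of Dox plants were clear, at 2172 to 2997 CPM in systemic and 4553 to 11759 CPM in local leaves. In control plants they overlapped. For systemic over local, 9 of the 13 other genes were negative in Dox plants (median −0.94) and 10 in control plants (median −0.21). Positive values were 52.1% and 49.3% of all genes. DESeq2 called 4 of the 13 in Dox plants, against 3.06% of all genes, and 0 in control plants, against 0.294%. edgeR called 0 in both.

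**Figure D4:**
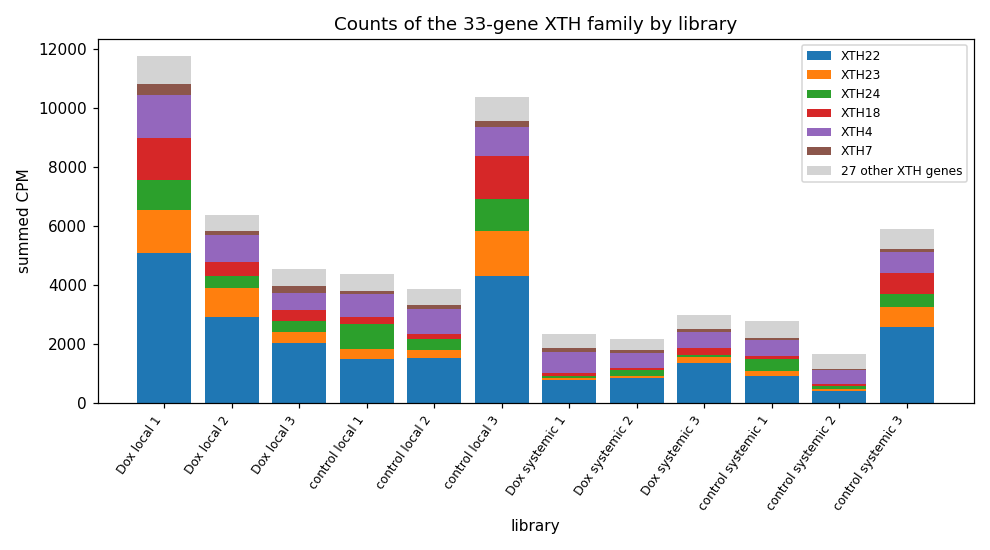
Summed level of the XTH family (CPM) in each of the 12 libraries, split into the 6 genes with the highest mean CPM per kb and the 27 others. Dox local library 1 (11759 CPM), control local library 3 (10368 CPM) and control systemic library 3 (5908 CPM) are the tallest bars of their groups, and XTH22 is the largest of the 6 named segments in 11 of the 12 bars.

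In local leaves edgeR and DESeq2 called 0 of these 13 genes. The largest log2 fold changes, Dox over control, were 1.79 (SE 1.34) for XTH31 and 0.73 (SE 0.38) for XTH32, both of the group predicted to hydrolyse xyloglucan, followed by XTH22 at 0.45, XTH23 at 0.42, XTH24 at −0.38 and XTH25 at 0.36. XTH32 was the 1 gene of the 13 whose libraries did not overlap, with Dox higher, against 4.14% of all genes clear and higher and 3.4% clear and lower. In systemic leaves 3 of the 13 had a positive value, against 49.9% of all genes, and again edgeR and DESeq2 called 0, with 2 at an unadjusted p under 0.05, against 8.61% of all genes. Dox libraries lay below all control libraries in 4 of the 13, against 8.41% of all genes: XTH16, XTH25, XTH27 and XTH29, of which XTH16 and XTH27 are named here after their values were seen. XTH32 had 15.8, 5.56 and 13.4 CPM in Dox systemic leaves, against 3.91, 5.62 and 3.88 CPM in control systemic leaves, a log2 fold change of 1.37 (SE 0.38, edgeR adjusted p = 0.451, DESeq2 adjusted p = 0.0714). XTH31 stood at 1.82, XTH29 at −2.03, XTH25 at −1.79, XTH23 at −1.43 and XTH24 at −1.36 in the same comparison. XTH29 and XTH31 lay at low levels, under 1 CPM on average for XTH29.

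Genes that make and trim xyloglucan were counted from lists. Of 7 synthesis genes, all tested, edgeR and DESeq2 called 0 in either Dox comparison. By leaf position, 6 of the 7 were lower in systemic than in local leaves in control plants and in Dox plants. Of all genes, 49.3% in control plants and 52.1% in Dox plants were higher in systemic leaves. Neither tool called any of the 7 there. CSLC4, which makes the glucan backbone, stood at 0.47 (SE 0.52) and the galactosyltransferase gene XLT2 at 0.42 (SE 0.22) in local leaves, and XLT2 at 0.35 and the galactosyltransferase gene MUR3 at −0.28 in systemic leaves. Of 4 trimming genes 0 were called by either tool in either Dox comparison. For systemic over local leaves in Dox plants, DESeq2 called 1 of the 4, against 3.06% of all genes, and edgeR called 0. The alpha-xylosidase gene XYL1 stood at −0.43 (SE 0.41) in local and 0.70 (SE 0.41) in systemic leaves, and the fucosidase gene AXY8 at 0.32 and −0.38.

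Alpha-expansins, wall-loosening proteins without hydrolytic activity, were the list with DESeq2 calls beyond the members in the Dox comparisons. In local leaves edgeR and DESeq2 called 0 of 10, and EXPA15 stood at 1.09 (SE 0.48) and EXPA3 at 0.68 (SE 0.48). In systemic leaves all 10 had a positive log2 fold change, against 49.9% of all genes, with a median of 0.55. edgeR called 0 of them, at adjusted p from 0.451 to 0.957, with 5 at an unadjusted p under 0.05, against 8.61% of all genes. DESeq2 called 3, against 0.715% of all genes. In 5 of them (EXPA3, EXPA5, EXPA6, EXPA8 and EXPA15) every Dox library lay above every control library, against 7.96% of all genes. EXPA3 had 51.1, 15.9 and 43.6 CPM in Dox systemic leaves, against 6.14, 6.49 and 7.70 CPM in control systemic leaves, a log2 fold change of 2.44 (SE 0.50, DESeq2 adjusted p = 0.00172). EXPA8 had 55.9, 9.96 and 22.3 CPM in Dox systemic leaves, against 5.99, 7.75 and 2.53 CPM in control systemic leaves, a log2 fold change of 2.43 (SE 0.71, DESeq2 adjusted p = 0.0455). The third, EXPA15, lies outside the naming rule for systemic leaves and stood at 1.73 (SE 0.46, DESeq2 adjusted p = 0.0455). EXPA5 and EXPA6, the other two clear genes, also outside the naming rule, stood at 0.39 (SE 0.17) and 0.46 (SE 0.17).

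The patterns of the 10 genes over the 12 libraries were set against each other as a description. The libraries share groups and scaling, so no p is given. Pearson's r of log2(CPM + 1) lay between 0.74 and 0.89 for the 6 pairs among XTH17, XTH18, XTH19 and XTH33, and between 0.72 and 0.95 after each group's mean was taken out, so the likeness was present between libraries of a group. That range was not particular to these genes. Over all libraries XTH7 with XTH19 stood at 0.82, XTH4 with XTH18 at 0.78 and XTH6 with XTH7 at 0.77. Others lay far lower, such as XTH7 with XTH15 at 0.15, and the median over all 45 pairs was 0.58. The close copies may also share reads, as set out above. XTH9 was near XTH17, XTH18 and XTH19 once group means were removed, at 0.93, 0.81 and 0.87. XTH8 was unlike the rest, with r between −0.48 and −0.07 to the other 9 over all libraries. Once group means were removed its r lay between −0.32 and 0.40, a range that overlaps that of the other pairs.

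**Figure D5:**
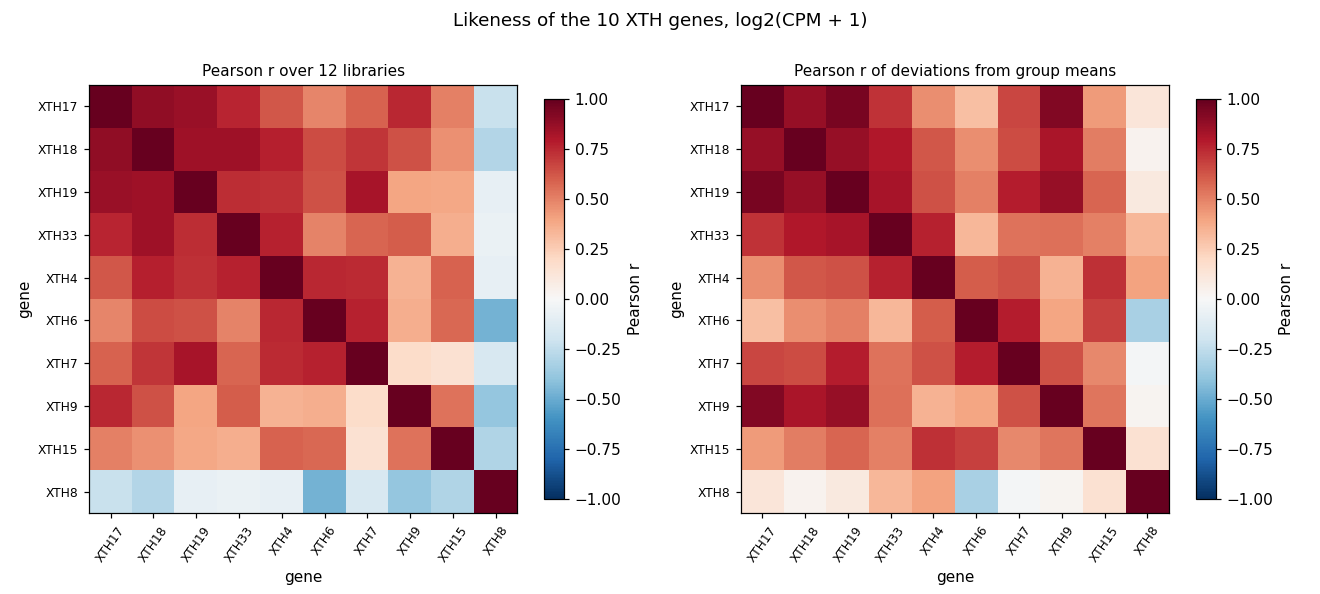
Pearson r between the 10 XTH genes over 12 libraries, on log2(CPM + 1) (left) and on deviations from group means (right). The block of XTH17, XTH18, XTH19 and XTH33 lies between 0.74 and 0.89 on the left and between 0.72 and 0.95 on the right, and the XTH8 row stands apart on the left. Other pairs, such as XTH7 with XTH19 at 0.82 on the left, lie in the range of that block.

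Among all genes tested, the 5 most like XTH18, the member with the widest range over libraries, were DRM3 (r = 0.989), MLO8 (0.987), AT3G44400 (0.987), PERK1 (0.983) and AT3G01430 (0.983). Within the family, XTH22 (0.970) and XTH23 (0.968) were closest to XTH18, and XTH24, its neighbour on the chromosome, stood at 0.752. The 5 most like XTH4, the member with the highest level per kb, were XBAT35 (0.962), ERD1 (0.935), AT1G16860 (0.932), NPH4 (0.931) and AT1G77640 (0.929). These are likenesses over 12 libraries of 4 groups.

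Words that transcription factors are known to bind were looked for on both strands of the 250 bases before each annotated gene start in TAIR10.1. The G-box CACGTG was in 0 of 10 members and in 6.49% of 27443 promoters. A second word, CGTGTG, occurred before XTH8 among the 10, and in 5.37% of promoters. The auxin response element core TGTCTC occurred before XTH6, and in 10.9% of promoters. The W-box word TTGACC occurred before XTH8, and in 12.2% of promoters. No word overlapped another in these windows.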

How the data were processed

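RNA was measured by sequencing in 12 leaf libraries. The authors deposited whole-number read counts per gene, with no normalization. Per the submitters' processing notes, the tools were featureCounts 1.6.3, HISAT2, DESeq2, FastQC 0.11.9 and Trimmomatic 0.39, with no role or order given. Genome build, annotation, strand setting and the handling of reads that fit several genes: not given in the sources used here, so overlapping and antisense genes cannot be told apart. Of the genes counted, 149 lie outside the numbered loci. Each deposited file holds 3 columns of counts, taken as 3 libraries because they differed far beyond counting noise (chi-square per degree of freedom from 25.7 to 120.4).

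Counts were fitted with edgeR 4.0.16 in R 4.3.3 (quasi-likelihood test on 4 group means, TMM scaling, filterByExpr at a minimum count of 10, 8 residual and 3.32 prior degrees of freedom, common biological coefficient of variation 0.32). P-values were adjusted over all 19403 genes tested, with a threshold of 0.05. Each SE given with an edgeR value was derived as the absolute log2 fold change over the square root of the quasi-likelihood F statistic. DESeq2 1.42.0 and limma 3.58.1 were alternatives, as were other scalings, other filters and leaving out libraries. The fit was tried on simulated counts with 200 genes changed in the local Dox comparison. At 4-fold, 142 of them (71%) were called in the right direction, with 8 unchanged genes called. At 16-fold, 184 (92%) were, with 16 unchanged genes called. The simulated libraries were drawn independently, without the shared deviations of the real libraries. The 200 changed genes also ease the adjusted threshold, whereas the real local comparison called 0 genes. The share recovered in the real data can therefore be lower and was not measured. A gene without a call can thus still differ 4-fold. Library numbers were checked by the correlation of same-numbered libraries' deviations from their group means. It was 0.32, 0.49 and 0.78 between control systemic and control local leaves. These were taken as paired on this evidence alone, since the labels do not say what a number stands for. The 3 deviations of a group cancel out, so the 3 values are not separate pieces of evidence. Libraries with unlike numbers were not compared. In no other comparison were all 3 pairs above 0.1. CPM uses TMM-scaled totals, and log2 levels use a pseudocount of 1. Named beside the members are the 6 other XTH genes and the 2 genes of each pathway list with the largest absolute log2 fold change per Dox comparison, and the 5 genes most like each of 2 members. The members and lists were chosen with earlier results of these data known. Coordinates are not printed, since the authors' build is not known.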

Additional observations from a re-analysis of the deposited data

How the results depend on the processing

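All statements here are on the log2 fold change unless a count is named. The count of members passed by the adjusted p stayed at 0 in every comparison under limma-voom, RLE, upper-quartile and library-total scaling, both other filters, fits to the groups compared (run for the 4 comparisons of 2 groups and not for the interaction), the replicate block on all 12 libraries, leaving out any 1 library, and leaving out the high pair of local libraries (library 3 of the controls and library 1 of the Dox leaves). DESeq2 passed 1 member in systemic leaves, XTH9, in the full fit, 1 when control systemic library 2 was dropped and 1 when the third Dox systemic library was, with XTH9 at −1.72, −1.90 and −2.31. The DESeq2 fits without single libraries were chosen after seeing the data. Where a cause is not evident from the construction of an alternative, the cause was not tested.

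Of the values that changed sign under another scaling, tool or model, XTH17 in local leaves stood at −0.23 and the XTH7 and XTH6 interactions at 0.26 and 0.22 with the main settings, and the rest lay between 0.0048 and 0.18. In local leaves XTH9 was −0.012 by limma-voom, −0.033 with upper-quartile factors, −0.12 with library totals alone and −0.0055 in a fit to the groups compared, and XTH8 was −0.036 with library totals. In systemic leaves XTH6 was −0.0029 by DESeq2, −0.0027 with RLE factors and −0.013 in a fit to the groups compared, where XTH4 was −0.0072. In the interaction with library totals alone, XTH4 was −0.13, XTH6 −0.097 and XTH7 −0.014. The replicate block, with the library number as a term, gave 0.23 for XTH17 in local leaves and −0.0068 for XTH4 in systemic leaves, and it changed no call. With the replicate block in a fit to the control libraries alone, 2 members passed for systemic over local, XTH18 and XTH19. With the libraries numbered 2 left out of that fit 4 passed, with XTH8 at 1.08, XTH17 at −0.97, XTH18 at −1.18 and XTH19 at −1.53, and with those numbered 1 or 3 left out 0 did, with XTH8 at −0.092 in the fit without number 1. These fits, and the one without both control libraries numbered 3, were chosen after seeing the data. The pairing behind the block came from the same data, so the p-values of the block fits to control libraries can be too small. Outside the control comparison of leaf position the numbers were not taken to pair the libraries. Libraries numbered 3 also deviated together between other groups, at 0.52 between Dox systemic and control systemic and 0.49 between Dox systemic and control local leaves, and not with Dox local leaves, at −0.0055 to 0.056.

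Without that high pair of local libraries, the values were −0.16 for XTH4, −0.31 for XTH6, −0.15 for XTH8 and 0.30 for XTH17 in the local Dox comparison. The same fit gave a members' median of −0.13 for systemic over local in control plants, with XTH17 at 0.28, XTH18 at 0.37 and XTH33 at 0.85. In Dox plants it gave a median of −0.48, with XTH15 at 0.44, and in the interaction −0.17 for XTH4 and −0.31 for XTH6.

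By DESeq2 in systemic leaves, XTH4 was −0.037 without control library 1, −0.14 without control library 2 and −0.13 without Dox library 1. XTH6 was −0.23 without control library 2, −0.19 without Dox library 1 and −0.047 without Dox library 2. Without control library 3 the members' median was 0.36, with XTH17 at 0.51, XTH18 at 0.63 and XTH33 at 0.027.

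With 1 library left out at a time, the local Dox comparison gave a members' median between −0.35 and 0.67. The ranges were −0.21 to 0.44 for XTH4, −0.43 to 0.54 for XTH6, −0.17 to 0.85 for XTH8, −0.27 to 0.34 for XTH9, −0.85 to 0.95 for XTH17, −0.52 to 1.81 for XTH18 and −0.51 to 1.44 for XTH19. XTH7, XTH15 and XTH33 kept their direction. In systemic leaves the median lay between −0.58 and 0.34, XTH4 between −0.14 and 0.20, XTH6 between −0.22 and 0.21, XTH17 between −1.82 and 0.49, XTH18 between −1.82 and 0.62 and XTH33 between −1.59 and 0.024. XTH7, XTH8, XTH9, XTH15 and XTH19 kept their direction, with XTH9 between −2.30 and −1.43. For systemic over local, the median lay between −1.10 and −0.12 in control plants, with XTH8 between −0.049 and 0.97, XTH17 between −2.02 and 0.29, XTH18 between −2.87 and 0.38 and XTH33 between −1.16 and 0.85. In Dox plants it lay between −1.44 and −0.51, with XTH15 between −1.34 and 0.41. The interaction lay between −0.22 and 0.44 for XTH4, −0.44 and 0.54 for XTH6, −0.18 and 0.63 for XTH7, −0.91 and 0.12 for XTH8, −0.72 and 1.59 for XTH17, −0.34 and 2.91 for XTH18 and −1.60 and 0.74 for XTH19.

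Depth limits XTH15 most, with 17 to 325 counts in a library, then XTH33, from 29 counts, and XTH19, from 59.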
